A study of Danio rerio with 10 samples.

Results

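The flank described here is a single DNA sequence that TransTag libraries of a wild-type zebrafish and of 9 transgenic lines all contained. TransTag maps transgenes: Tn5 transposase cuts genomic DNA and attaches adapters, fragments holding the end of a Tol2 transposon are amplified, and the read runs from that end into the neighbouring DNA, the flank. Reads were chosen by their first 20 bases, which had to lie within 4 edits of the commonest first 20 bases in the wild-type library. This gave 159003 reads of 163896 sequences of 20 bases or more, and of 182203 flanking sequences in all. The rule used the sequence of those 20 bases, so that the flank occurs in the wild type and its identity up to base 20 are not results. Bases from position 21 on were not used by it. Fragment length entered through the minimum of 20 bases and, where adapter began within the first 20 bases, through the edit limit. Shares of ends are therefore shares among chosen sequences of 20 bases or more.

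All libraries came from tail fin clips of adult fish, with about 100 ng of DNA each and 1 library per genotype. The wild type is labelled with no transgene, and how it came to give reads of a flank was not tested. Tg(h2ax:h2az2a-mCherry)mw3 is called H2A.Z-mCherry here, the line with mitfa:mCherry and crestin:EGFP the compound line, and Tg(sox10:Kaede)zf393 sox10:Kaede. The other 6 genotypes carry reporters under QUAS, the sequence bound by the fungal activator QF. They are c636, with QUAS:mApple-CAAX and he1.1:mCherry, c787, with QUAS:mApple and he1.1:CFP, Tg(QUAS:GFP)c403, Tg(QUAS:GCaMP7a)c594, Tg(QUAS:GFP, cmlc:GFP)c635 and Tg(QUAS:GFP-CAAX)c591. Each is named by its allele number below. The sources used here do not state the number of fish behind a library or which Tol2 end was read. With 1 library per line there is no replicate spread and no test between lines. The intervals are exact (Clopper-Pearson) 95% intervals and cover counting error only, because PCR copies of one fragment are counted as separate reads.

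Tol2 is a DNA transposon found in medaka fish, and vectors that hold cargo between its ends are the usual way to make transgenic zebrafish. Its transposase pastes the element into the chromosome and duplicates a few bases of the target on each side, so the first base after the element end is where host DNA begins. Tn5, the enzyme used to fragment the DNA, is itself a transposase. It has a weak but known sequence preference in which G at the first base of its target is favoured, which on the opposite strand reads as C. In TransTag the start of a read is therefore set by the Tol2 end and its far end by a Tn5 cut, unless the read stops first.

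The consensus of the shared flank over 80 bases is printed because every later position refers to it. It runs 5′ to 3′ from the start of the deposited sequences, by majority over all libraries, and position 1 is its first base. Capitals mark the last base before each of the 5 commonest fragment ends, at positions 21, 28, 38, 42 and 52. The bases before position 1 were not analysed here, so a Tol2 end before it was not checked in any library. No genome was used here, so its chromosome and any gene at it were not analysed.
shared flank: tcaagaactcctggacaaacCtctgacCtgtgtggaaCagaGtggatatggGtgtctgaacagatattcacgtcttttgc

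From base 21 on, the wild type and the transgenic libraries had the same flank. In the wild type and 8 transgenic libraries, all 60 positions from 21 to 80 were covered by at least 5 reads, and the majority base equalled the consensus at each of them. In c635 that depth was reached at 46 of these positions, with 0 differences. At position 21 the coverage was lowest with 130 reads (H2A.Z-mCherry) and highest with 132950 (sox10:Kaede). At position 75 it ran from 4 reads in c635 to 40143 in sox10:Kaede. A base at which one of these fish differed in most reads was therefore not found. Positions near the end of the read rest on few reads in most libraries. At position 75 there were 18 in c636, 19 in c787, 27 in c403 and 50 in c594. H2A.Z-mCherry had 39 and the wild type 60 there, against 1095 in c591.

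The number of reads of the flank differed greatly between libraries. The wild type had 234 reads of it, H2A.Z-mCherry 130, the compound line 14856 and sox10:Kaede 134195. Among the QUAS lines c636 had 173, c787 200, c403 340, c594 454, c635 148 and c591 8273. The sox10:Kaede library thus held 84.4% of all reads of the flank, and 7 libraries had under 500. It also gave 135580 of the 163896 sequences of 20 bases or more. The wild type gave 239 such sequences, c635 271, H2A.Z-mCherry 1101, c591 8337 and the compound line 15811. These totals include the flank itself, so they are not a separate measure of library size. Sequences of that length outside the rule numbered 1385 in sox10:Kaede, 971 in H2A.Z-mCherry, 955 in the compound line, 64 in c591 and 5 in the wild type. The part of library size in the counts was not tested. As shares of sequences of 20 bases or more, the lowest value was 11.8% (9.96 to 13.9%) in H2A.Z-mCherry and the highest 99.2% (99.0 to 99.4%) in c591. Counted by distinct sequences H2A.Z-mCherry had 24.3%, and c636 was lowest with 19.5%. The wild type, at 97.9% (95.2 to 99.3%), lay beside sox10:Kaede at 99.0%, and their intervals overlap.

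Repeated sequences made up most of these reads. The distinct sequences numbered 48 in the wild type, 25 in H2A.Z-mCherry, 505 in the compound line, 15426 for sox10:Kaede, 36 in c636 and 29 in c787. In c403, c594, c635 and c591 they numbered 52, 66, 43 and 460. The reads per distinct sequence were lowest in c635 (3.44) and highest in the compound line (29.4), where the commonest sequence, the flank cut after base 21, took 41.1% of the reads. Of 15983 distinct sequences over all libraries, 444 occurred in at least 2 libraries. Those 444 held 97.9% of the wild-type reads, 98.5% in H2A.Z-mCherry, 80.7% in sox10:Kaede and 88.2% in c403. Most distinct sequences in sox10:Kaede were seen once (12864, or 83.4%).

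Most reads matched the wild-type start exactly, and the rule bounds how far the rest could differ. For c636 the exact matches were 147 of its 173 reads, for c787 168 of its 200, for c403 287 of its 340 and for c635 124 of its 148. Of the 134195 reads of sox10:Kaede, 117625 matched, 13590 had 1 edit, 2015 had 2, 380 had 3 and 585 had 4. In the wild type 226 reads had none and 8 had 1. Over all libraries 600 reads lay at the limit of 4 edits and 111 just outside it at 5. Residual Tn5 adapter ran through 540 of the 600, and 499 of them had 16 bases before the adapter. Of the 111 reads just outside, 79 also had 16 bases before it. Reads with 16 bases before the adapter therefore lay on both sides of the limit. The 551 chosen reads with under 20 bases left once the adapter was removed were left out of the ends counted next. So were 819 reads that ended at base 20. Both remain in the totals where shares of a library's reads are given.

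Fragment ends were concentrated at a few positions that all libraries shared. Of 59 positions from 21 to 79, 55 had at least 2 reads in some library, and 4 positions (21, 28, 38 and 52) had reads in all 10 libraries. The 5 marked positions took 78.3% of the 113074 reads that stopped before base 80, over all libraries. Within libraries their part ran from 63.0% (55.5 to 70.0%) in c787 to 85.9% in the compound line. The 5 ends lie 7, 10, 4 and 10 bases apart. Ends at positions 74 to 77 were nearly absent (2 reads). In an 80-base read fewer than 8 bases of adapter remain there, too few for the removal used here. Shorter sequences were taken to end at their deposited length, and 104 reads ended at 79. Why ends at 74 to 77 were nearly absent was not tested.

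The base before the cut was mostly C. C stands at 10 of the 59 positions (16.9%), yet 60.4% of the reads that stopped at these positions ended on it, against 30.1% on G, 5.10% on A and 4.33% on T. G stands at 17 positions, A at 13 and T at 19. In sox10:Kaede, the library with reads at most positions, the median number of reads per position was 1260.5 for C, 270.0 for G, and 56 for both A and T. The share of ending reads on C was lowest in the wild type, at 57.9% (50.1 to 65.4%), and highest in c403, at 75.5% (70.3 to 80.2%). In every library it was above the 16.9% of positions that hold C. A weight of reads on a few positions also raises or lowers these shares, since 3 of the 5 commonest ends (21, 28 and 38) follow C and the other two follow G.

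**Figure D1:**
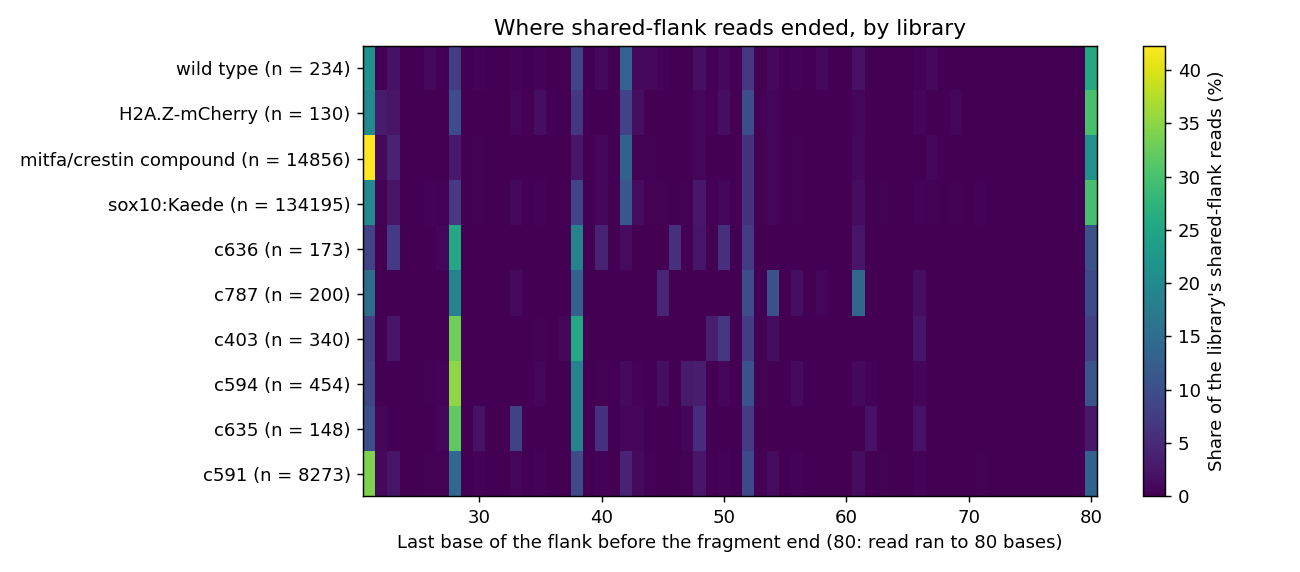
Heat map of the last flank base before the fragment end (horizontal axis, bases 21 to 80, where 80 holds reads that ran to 80 bases) for the 10 libraries (rows, n reads of the shared flank). Colour gives the share of the library's reads; bands at 21, 28, 38 and 52 run through all 10 rows, and the band at 42 fades in the QUAS rows.

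How often each end was used differed between libraries, and for many pairs of libraries the intervals do not overlap. The intervals take repeated copies of a fragment as separate reads, so they may be too narrow, above all in the shallow libraries. The minimum of 20 bases also cut the libraries unevenly: it kept 645 of 1266 sequences in c594 and 15811 of 16835 in the compound line. Whether the shorter sequences came from the flank was not counted here. The end after base 21 took 50 of 234 reads in the wild type (21.4%, 16.3 to 27.2%), 26 of 130 in H2A.Z-mCherry, 42.3% in the compound line and 20.2% for sox10:Kaede. In the QUAS libraries it took 8.67% in c636, 15% in c787, 7.94% in c403, 8.81% in c594, 10.1% in c635 and 34.1% (33.1 to 35.2%) in c591. The QUAS and the other libraries overlapped at this end, with c591 above 3 of the 4 others. It was the commonest end in the 4 other libraries and in c591, while base 28 was the commonest in the remaining 5 QUAS libraries.

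At base 28 the order was turned. The wild type had 18 reads there (7.69%, 4.62 to 11.9%), H2A.Z-mCherry 13 (10.0%, 5.43 to 16.5%), the compound line 413 (2.78%) and sox10:Kaede 9425 (7.02%). In c636, c787 and c403 the shares were 25.4%, 19% and 32.9%. In c594, c635 and c591 they were 35.0%, 31.8% and 14.5% (13.7 to 15.2%). Every QUAS library lay above every other library, although the intervals of c591 and of c787 (13.8 to 25.1%) overlap that of H2A.Z-mCherry. Base 38 had the same order, from 9.84% in c591 to 25.6% in c403 among QUAS libraries and from 2.54% in the compound line to 8.55% in the wild type among the others. There the intervals of c591 (9.21 to 10.5%) and of c787 (8.67 to 18.5%) each overlap those of the wild type (5.30 to 12.9%) and H2A.Z-mCherry (3.21 to 12.7%).

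The end after base 42 went the other way. It held 31 reads in the wild type (13.2%, 9.18 to 18.3%), 11 in H2A.Z-mCherry (8.46%, 4.30 to 14.6%), 1962 (13.2%) for the compound line and 15394 (11.5%) for sox10:Kaede. In c787 and c403 it had 0 reads (upper bounds 1.83% and 1.08%), and in c635 it had 1 read. In c636 and c594 it had 2 and 5 reads (1.16% and 1.1%), and in c591 351 reads (4.24%, 3.82 to 4.70%). All 6 QUAS libraries were below the 4 others, and in 5 of them, all but c591, the upper bound of the interval was at most 4.11%. The interval of c591 overlaps that of H2A.Z-mCherry. Reads that ran to base 80 followed the same order, from 2.70% in c635 to 13.2% in c591 against 21.6% in the compound line to 30.0% in H2A.Z-mCherry. This class was set by length. It also holds reads that left the flank earlier, and may hold reads with too little adapter to be found. Of 56 ends compared, full-length reads included, the shares of QUAS and other libraries did not overlap at 4, or 7.14%. These 4 were base 28, base 38, base 42 and full length, so 3 of the 5 commonest ends were among them. At 3.57% of ends the QUAS libraries were lower and at 3.57% higher. At many of the 56 ends the lowest share was 0 in both groups, so their ranges could not separate. These percentages therefore do not measure how often an end with reads in most libraries separates the groups. At base 52 the groups overlapped, with 7.35 to 10.6% in QUAS libraries and 5.98 to 10.0% in the others.

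**Figure D2:**
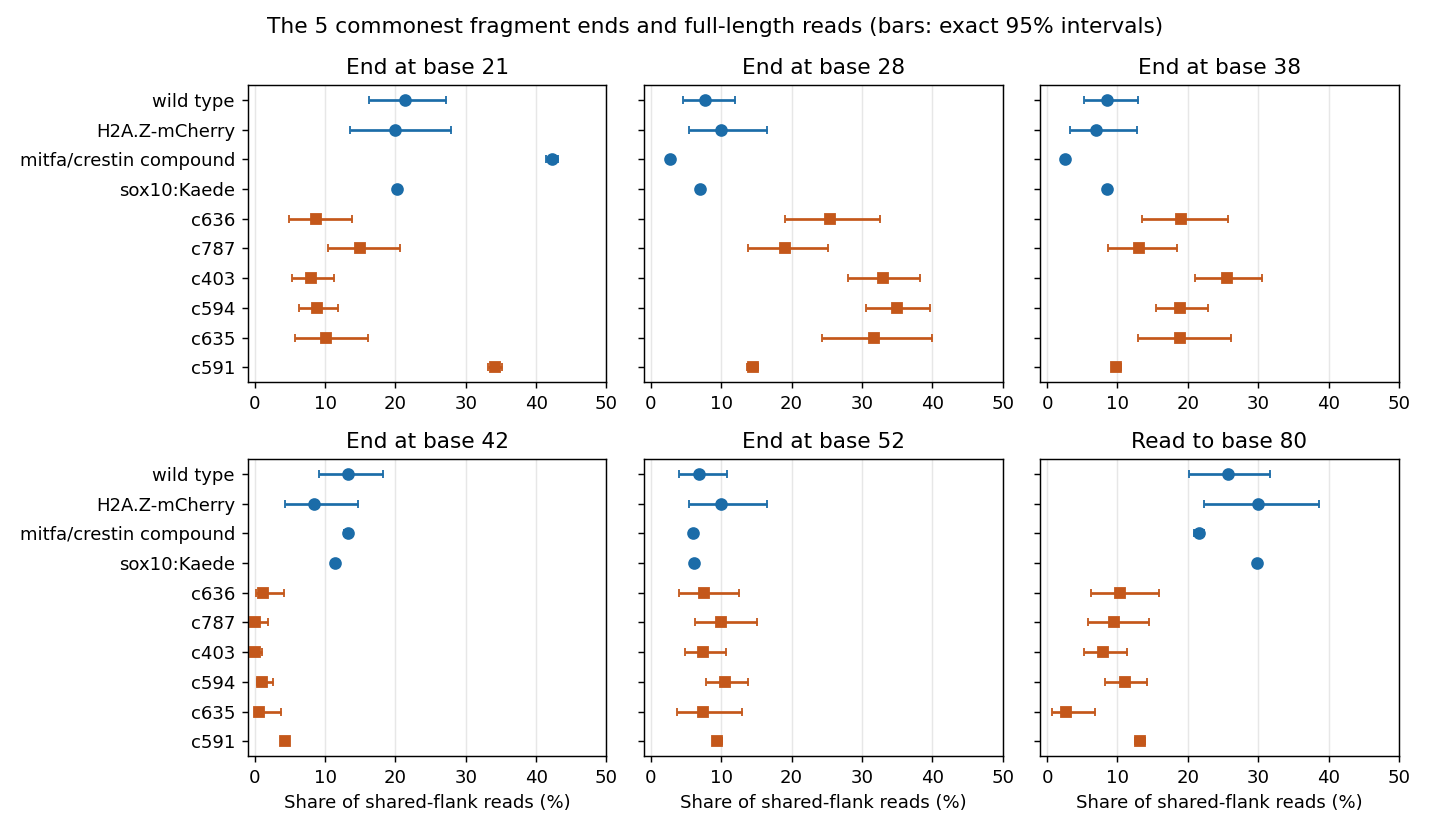
Share of shared-flank reads (horizontal axes, percent) at the 5 commonest fragment ends and at full length, by library (rows), with exact 95% intervals as bars; circles are the wild type and the 3 lines without QUAS, squares the 6 QUAS lines. At base 42 the circles lie between 8.46% and 13.2% and the squares between 0% and 4.24%.

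The ratio of reads at bases 28 and 21 put the libraries in one order. It was 0.0658 for the compound line, 0.347 for sox10:Kaede, 0.36 (0.198 to 0.628) for the wild type, 0.424 in c591 and 0.5 (0.236 to 1.01) in H2A.Z-mCherry. It was 1.27 (0.764 to 2.12) in c787, 2.93 in c636, 3.13 in c635, 3.98 in c594 and 4.15 (2.71 to 6.57) in c403. From c787 to c403 neighbours in this order had overlapping intervals. Those of sox10:Kaede, c591 and H2A.Z-mCherry each overlapped that of the wild type. By value c591 lay with the 4 libraries without QUAS. The value of c787 lay between the groups, but its interval overlapped those of H2A.Z-mCherry and of c636.

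The QUAS division runs along another one. Among all sequences of a library, not only those of the flank, some ran through the adapter into what was taken as the sequencing index. It was read at a fixed distance after the adapter. The commonest index sequence was the same in the wild type, H2A.Z-mCherry, the compound line and sox10:Kaede. Another was commonest in c636, c787 and c403, and the last in c594, c635 and c591. For the wild type this rests on 2 reads and for H2A.Z-mCherry on 3. In c636 and c787 there were 27 and 9 reads with an index, but only 3 and 1 reads of the flank with adapter. H2A.Z-mCherry had 0 of the latter. Within 1 mismatch of the commonest sequence were 85 of 92 reads in the compound line and 78 of 87 in c591. No set held both QUAS libraries and others, so the kind of line and the index set cannot be told apart. Within the last set base 42 still ranged from 0.676% in c635 to 4.24% in c591. The library with most reads among the QUAS lines, c591, was also the one most like the others in its ends, and the part of depth in that was not tested.

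End profiles were also compared as wholes, by the summed smaller share at each end from 21 to 79. The wild type and sox10:Kaede overlapped by 92.5%, the highest value of any pair. The wild type overlapped H2A.Z-mCherry by 80.7%, c591 by 78.3% and the compound line by 69.9%, and the other 5 QUAS libraries by 44.8 to 55.1%. Pairs within the 4 libraries without QUAS had a median of 75.9% (6 pairs), pairs within QUAS 60.1% (15 pairs) and pairs across 50.7% (24 pairs). Without c591 the QUAS pairs had a median of 72.0%. Pairs of libraries share members, and few reads lower an overlap, so these values describe the 10 libraries only.

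Several shallow libraries had ends with a higher share than in any other library, singled out after their values were seen. In c787 base 61 took 28 of 200 reads (14.0%) and base 54 took 21 (10.5%), while no other library had more than 2.31% and 1.47% there. In c636 base 46 took 10 of 173 reads (5.78%), against 62 reads (0.0462%) in sox10:Kaede and 0 in the 8 remaining libraries. In c403 base 49 took 12 reads (3.53%), against 0.0447% in sox10:Kaede and 0.0202% in the compound line. In c635 base 33 took 12 of 148 reads (8.11%), against at most 1% elsewhere. Each of these ends thus took a larger share in 1 library than in the others. None of these ends was confined to 1 library. Base 61 had reads in 8 libraries, and bases 54 and 33 in 7 each. Base 49 had reads in 3 libraries and base 46 in 2.

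The number of ends moved with depth. Positions with at least 2 reads numbered 16 in the wild type, 10 in H2A.Z-mCherry, 44 in the compound line and 55 in sox10:Kaede. They numbered 11 in c636, 10 in c787, c403 and c635, 16 in c594 and 31 in c591. Brought to 130 reads, the number in the shallowest library, the expected number of ends with any read was 17.7 in the wild type, 16.8 in sox10:Kaede, 15.4 in c591, 14.4 in c635 and 13.5 in c594. It was 12.5 in the compound line, 11.7 in c636, 10.4 in c787 and 9.87 in c403, and H2A.Z-mCherry had 16. By this count the wild type had about as many ends as sox10:Kaede, and the compound line, with 14856 reads, fell among the QUAS libraries. With 2 reads needed at the same depth, the compound line had 7.37, below every QUAS library, of which c403 was lowest at 8.51. The wild type then had 9.98, sox10:Kaede 9.65 and c636 10.5. The median length over all reads was 28 bases in the compound line and c591, 42 in the wild type, H2A.Z-mCherry and sox10:Kaede, 38 in c636, c403 and c594, 45 in c787 and 33 in c635.

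Few single-base variants from position 21 on were called. A position was called in a library when at least 5 reads and 5% of the reads covering it had the same other base. Of 541 positions tested over the libraries, 5 were called, or 0.924%. The wild type, H2A.Z-mCherry, the compound line, c636, c594, c635 and c591 had 0 called positions each, sox10:Kaede and c403 had 1, and c787 had 3. None of the 5 reached 10%. Where few reads cover a position, the minimum of 5 reads asks for a share well above 5%. In c636 G42T was in 4 of 61 reads (6.56%) and in c635 A46C in 2 of 30 (6.67%), and neither was called. A count of 0 in a shallow library therefore does not show that such variants were absent. With each distinct sequence counted once, c787 had 0 called positions and c403 had 1, while sox10:Kaede had 10, the compound line 2 and c591 3. Substitutions are written as the consensus base, the position from the first base of the flank, and the base in the read.

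In c403, C23A was found in 23 of 309 reads (7.44%, 4.78 to 11%). Its reads were not spread over the ends: 22 of 23 stopped after base 28, where they made up 19.6% of the 112 reads. In c636 C23A had 4 of 157 reads and in c591 10 of 5355 (0.187%). In sox10:Kaede it had 214 of 104391 (0.205%) and in the compound line 8 of 8282 (0.0966%). The wild type and H2A.Z-mCherry had 1 read each, and c787, c594 and c635 had 0. The substitution thus reached the call in 1 library and sat almost wholly on 1 fragment length there.

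In c787 C21A was in 10 of 199 reads (5.03%, 2.44 to 9.05%), all of which stopped after base 52 and made up 50.0% of the 20 reads there. G50T was in 6 of 94 reads (6.38%) and C56A in 5 of 53 (9.43%, 3.13 to 20.7%). For each, 4 reads stopped after base 61, and 4 reads carried both. G50T and C56A each lay on 2 ends, unlike C21A. C56A was also in 1 of 10 reads of c635, too few for the call. In the wild type G50T had 2 of 91 reads, and C21A and C56A had 0. In sox10:Kaede C21A was in 661 of 131382 reads (0.503%), G50T in 0.101% and C56A in 0.111%.

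Among the first 20 bases, where the rule limits what can be seen, the same threshold marked 4 substitutions, given as a description. In c787, G13T was in 10 reads, all stopping after base 38, and C16A in 12 reads, 8 of them after base 45, where they were 8 of 9 reads. In c403, C10A was in 23 of 339 reads (6.78%), 11 after base 28 and 10 after base 21. In c635, C10A was in 9 of 148 reads (6.08%), on 3 different ends, and c594 had 6 of 453 (1.32%). Among the 309 reads of c403 that covered both positions, 13 had C10A and 23 had C23A, and 9 had both. No read of c787 joined any pair of G13T, C16A and C21A. Reads with G13T or C16A stopped before base 50 and those with C21A before base 56, so most pairings with G50T and C56A could not be seen. C10A was the sole one of these to pass the threshold in 2 libraries. It was also in 557 of 133211 reads of sox10:Kaede (0.418%), on 31 ends, in 18 reads of the compound line (0.122%) and in 15 of c591 (0.182%). The wild type had 1 read of 234, and H2A.Z-mCherry, c636 and c787 had 0.

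**Figure D3:**
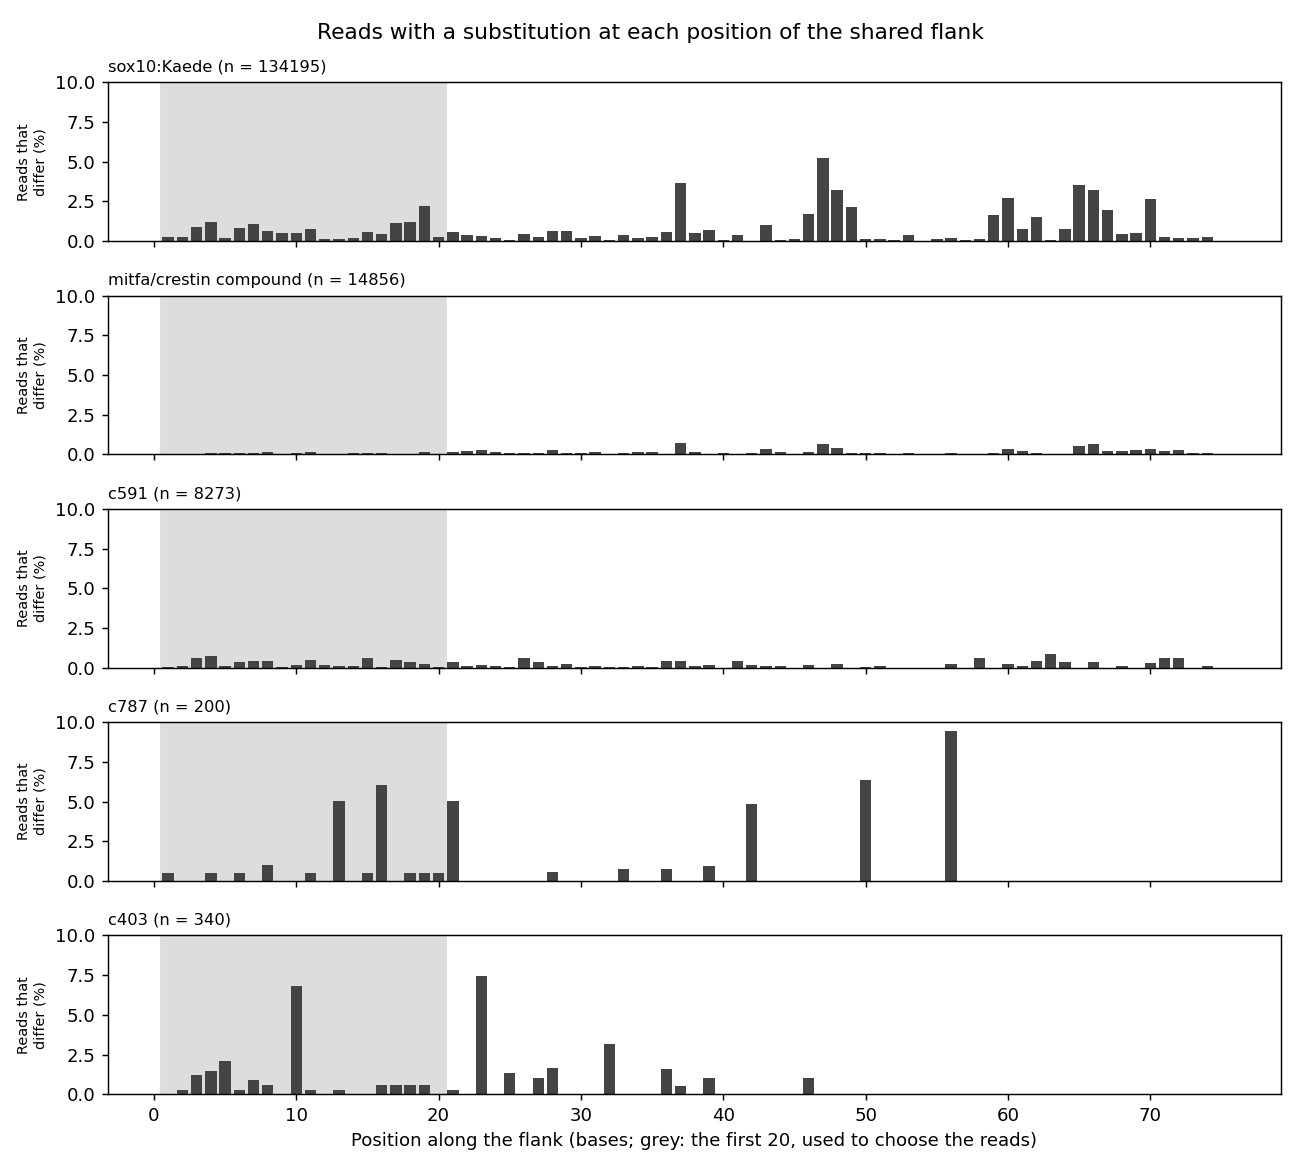
Share of reads with a substitution (vertical axes, percent) at each position of the shared flank (horizontal axis, bases) in 5 libraries, at positions with at least 20 reads; grey marks the first 20 bases. The sox10:Kaede library peaks at bases 47, 37 and 65, and c787 and c403 have single tall bars such as 9.43% at base 56 and 7.44% at base 23.

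The sox10:Kaede library differed from the consensus in another way. T47G was in 3067 of 58550 reads there (5.24%, 5.06 to 5.42%) and on 20 different ends, with 2365 of its reads running to base 80. In the wild type it was in 2 of 95 reads (2.11%, 0.256 to 7.40%), in H2A.Z-mCherry in 1 of 59 and in the compound line in 29 of 4595 (0.631%). No QUAS library had a read with it: the coverage was 49 in c636, 94 in c787, 99 in c403, 144 in c594, 30 in c635 and 2471 in c591. In c591 the upper bound was 0.149% of reads, which is below the compound line's interval (0.423 to 0.905%). In the other 5 QUAS libraries the upper bound lies above the compound line's share.

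Positions 47, 37 and 65 had the highest share of differing reads over all libraries, with 4.70%, 3.28% and 3.23%, against a median of 0.352% over positions 21 to 75. At each of them 1 change made up nearly all differences: T47G 99.6%, A37C 97.6% and T65G 99.1%. Position 37 differed in 3234 of 88832 reads of sox10:Kaede (3.64%), 52 of 7124 of the compound line (0.730%), 15 of 3784 of c591 (0.396%) and 3 of 152 of the wild type. Position 65 differed in 3.55% of sox10:Kaede reads and 0.545% of compound-line reads, and in 0 of 1166 in c591. These pooled values are set mainly by sox10:Kaede, which gave most of the coverage.

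Over positions 21 to 75, sox10:Kaede differed from the consensus at 0.761% of aligned bases (0.752 to 0.770%). The compound line differed at 0.163% (0.149 to 0.179%) and c591 at 0.178% (0.157 to 0.201%), and these intervals overlap. This order depends on counting repeats: with each distinct sequence counted once the compound line had 2.36%, second to sox10:Kaede at 3.18%, c591 had 1.84% and the wild type 1.55%, and c636 was lowest at 1.12%. The wild type, at 0.403% (0.258 to 0.598%), lay between, and H2A.Z-mCherry, at 0.318% (0.159 to 0.568%), overlapped the lower pair. The values for the remaining QUAS libraries c636, c787, c403, c594 and c635 were 0.408%, 0.683%, 0.754%, 0.456% and 0.708%, with intervals that overlap each other. Reads with no difference at all over their aligned bases were 88.9% in the wild type, 93.8% in H2A.Z-mCherry, 95.4% in the compound line, 73.7% for sox10:Kaede and 91.9% for c591. For c636, c787, c403, c594 and c635 it was 77.5%, 75.4%, 75.5%, 86.3% and 75%. These shares include the first 20 bases, and a longer read has more bases at which it can differ. Median lengths ran from 28 bases in the compound line and c591 to 45 in c787, so the shares are not at equal length.

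The kinds of substitution differed too. Changes of A to C or T to G were 65.6% of the 27318 substitutions in sox10:Kaede (65.0 to 66.2%), 35.2% of 474 in the compound line, 40.2% of 261 in c591 and 12 of 24 in the wild type. Changes of C to A or G to T were 87.9% of 33 in c787 (71.8 to 96.6%) and 87.5% of 48 in c403, against 11% for sox10:Kaede, 25.5% in the compound line and 38.3% in c591. In c787 and c403 most of these reads belong to the few named substitutions. Exchanges between A and T were 13.8% in sox10:Kaede, 20.7% (17.1 to 24.6%) in the compound line and 4 of 24 in the wild type. In the 6 QUAS libraries together they were 0 of 414, with an upper bound of 0.887%, and in H2A.Z-mCherry they were 0 of 11. This division too runs along the index sets, and the part of sequencing in it was not tested.

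A small number of reads began with the flank and then changed to other sequence. Reads with 8 or more edits over their aligned bases numbered 984 in sox10:Kaede, 48 in the compound line and 14 in c591, 1 each in c787, c403 and c594, and 0 in the 4 others. After setting aside those that resemble misread adapter and those that could not be assigned (60 in sox10:Kaede, 3 in the compound line and 1 in c591), 492 reads had a tail of different sequence: 460 in sox10:Kaede (0.343% of its reads), 26 in the compound line, 5 in c591 and 1 in c594. The tails formed 71 kinds, of which 47 had 1 read and 22 had 2 to 20 reads. Only 1 kind was found in 2 or more libraries.

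A pair of tails held 366 of these reads, all in sox10:Kaede, and they are printed because they show where the flank was left. Capitals mark the bases that depart from the consensus.
tail after base 29: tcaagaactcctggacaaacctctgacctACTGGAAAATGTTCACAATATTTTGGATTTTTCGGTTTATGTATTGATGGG
tail after base 32: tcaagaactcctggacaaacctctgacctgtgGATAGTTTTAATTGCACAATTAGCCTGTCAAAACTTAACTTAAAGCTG

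The tail after base 29 was in 258 reads, or 0.192% of sox10:Kaede's reads of the flank, and 241 of them ran to base 80. The tail after base 32 was in 108 reads (0.0805%), which stopped at 6 positions with at least 2 reads each, and 53 ran to base 80. Their GC content was 31.4% over 51 bases and 31.2% over 48 bases, against 46.2% in the shared flank. The first 20 bases of either tail occurred in no line of the other 9 libraries, and in sox10:Kaede in no line whose start was more than 8 edits from the flank. Their reverse complements were found in 0 lines. Where these tails lie in the genome or in a construct was not analysed here.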

How the data were processed

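Each line of a deposited file is 1 flanking sequence, with no other column, count or coordinate, and lines were counted as reads. Per the labels' protocols about 100 ng of fin DNA entered each library. Not given in the sources used here is how the authors cut, trimmed and filtered what they deposited, nor an aligner or build. Members and settings were chosen with earlier results of these data known.

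Edits were counted with edlib 1.3.9.post1 in Python 3.11.15. The residual adapter was read from the files as the 19-base majority after the flank, and removed at up to 3 edits, or from 8 bases at the end of an 80-base read. Reads were aligned over 76 bases to the consensus, and variants were counted at positions up to 75. Reads with 8 or more edits were set aside. Tails were grouped when their first 20 bases lay within 3 edits. Exact intervals used scipy 1.17.1. For 0 reads the upper bound of the exact interval is given. The choice of reads, adapter removal, ends and variant calls were tested on simulated data. These had a few fixed ends and substitution errors, with no insertions, deletions or reads leaving the flank. The grouping of tails and the index sets were not simulated. Ends named by plan are the commonest of each library and the 5 commonest overall. Positions named by plan are those called and the 3 with most differences. Ends at bases 33, 46, 49, 54 and 61 were named after their values were seen. G42T, A46C and the substitutions in the first 20 bases were also named outside the plan. The planned placement on a genome was not run.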

Additional observations from a re-analysis of the deposited data

How the results depend on the processing

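Of 235 values recomputed under other settings, 174 stayed within the interval of the value reported, or within 1.5 times for counts, and 61 moved. Some of the 174 could not have moved. A library with 0 called positions at 5% also has 0 at 10%, and H2A.Z-mCherry brought to 130 reads is unchanged. The tally is therefore not a measure of robustness. No paired analysis was possible because no line had a second library. The match to a genome was not run. Counting each distinct sequence once, the share of the shared flank was 92.3% for wild type, 24.3% for H2A.Z-mCherry, 80.3% for compound, 93.7% for sox10:Kaede, 85.2% for c403, 60% for c594, 61.4% for c635 and 97.3% for c591. With a 30-base minimum it was 88.8% for compound, 98.6% for sox10:Kaede, 14.4% in c636, 27.6% in c787, 59.3% for c594, 44.9% for c635 and 98.4% for c591. In sox10:Kaede edit limits of 2, 3, 5 and 6 gave 98.3%, 98.5%, 99.1% and 99.1%, and adapter removal before the match 99.6%, and in c591 a limit of 2 gave 98.9%. The number of end positions was 8 at 3 reads and 7 at 5 reads in the wild type, 16 at 1 read and 5 at 5 reads in H2A.Z-mCherry, and 9 at 5 reads in c594. At 130 reads, with 2 reads needed, it was 9.98 for wild type, 7.37 for compound, 9.65 for sox10:Kaede, 8.60 in c594 and 9.45 in c591. Settings chosen after seeing the data moved the share at base 42 in sox10:Kaede to 10.6% without adapter reads and 12.6% with reads that had no difference, and moved no ratio of bases 28 and 21. Called positions over all libraries, 5 in the report, were 20 at 1%, 14 at 2%, 0 at 10% and 16 by distinct sequences, where c787 had 0 and sox10:Kaede 10. The share of differing bases by distinct sequences was 1.55% for wild type, 1.54% for H2A.Z-mCherry, 2.36% for compound, 3.18% for sox10:Kaede, 1.12% in c636, 1.60% in c787, 1.68% in c403, 1.67% in c594, 1.89% in c635 and 1.84% in c591, since a repeated exact read counts once there. Without the last 5 bases it was 0.777% in sox10:Kaede.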

Other observations

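Sequences outside the edit limit but close to it mostly held residual adapter after a short stretch. Whether that stretch matched the flank was not counted. At 8 edits, 239 of 240 reads over all libraries held residual adapter, and 138 had 8 bases before it. At 7 edits the count was 54 of 56. Almost all residual adapter within the chosen reads, 97.4% of 9672 reads, lay in sox10:Kaede, which held 84.4% of all chosen reads. Within libraries it was in 9417 of 134195 reads of sox10:Kaede, 127 of 14856 of the compound line, 97 of 8273 of c591 and 9 of 340 of c403.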
